A study of Mus musculus with 15 samples.

Results

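Heparan sulfate synthesis and core proteins were followed through 41 genes: the enzymes that build, sulfate, edit and cut the chain, and the syndecans and glypicans that carry it. Of these, 40 had a transcript cluster (the array's unit of measurement for a gene) annotated to them alone, each with 1 such cluster, among the 19938 genes measured; Ndst1 is not analysed here. The genes were listed by biochemical role, and the set was proposed because Ndst4 had been seen to be high in alpha cells. That choice used the alpha and beta arrays, so Ndst4 is described in every comparison and its calls support nothing.

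RNA of sorted mouse islet cells was hybridised to 15 Mouse Gene 1.0 ST arrays, 5 per group, all from animals on a mixed B6 and BALB/C background. Beta cells, the insulin-producing cells, were labelled glucagon-Cre; RosaYFP. Alpha cells, the glucagon-producing cells, were labelled RIP-CreER; Pdx1fl/+, RosaYFP, that is with a floxed allele of the transcription factor gene Pdx1. RIP is the rat insulin promoter, which is usually active in beta cells, and the glucagon promoter in alpha cells, so these genotype labels run against the titles, from which groups were taken. Both control groups came from mice 2 months old and were sorted by the YFP reporter. The third group, Pdx1-deficient (PKO) cells described as reprogrammed, was taken 5 days after tamoxifen; its driver, sorting and age, and whether controls received tamoxifen, were not stated in the labels. The labels do not say whether replicates were different mice, so p-values measure the spread between samples, which may be technical.

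Heparan sulfate is a long, sulfated sugar chain attached to core proteins of the cell surface and matrix. Synthesis starts with a linker sugar on a serine of the core protein, exostosins extend the chain, and N-deacetylase/N-sulfotransferases (NDST enzymes) then swap acetyl for sulfate groups. That step marks where the epimerase and the O-sulfotransferases act, and the resulting pattern decides which growth factors and other ligands bind. In islets, heparan sulfate is known to be abundant inside beta cells and to support their survival.

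Array medians of the log2 signal lay between 5.88 and 6.05, and pairs of arrays correlated at 0.907 to 0.979. The medians differed by group: 5.882 to 5.926 in beta, 5.930 to 6.022 in alpha and 5.964 to 6.055 in Pdx1-deficient arrays. Every beta median was thus the lower. Subtracting array medians shifted the median difference from beta by -0.09 in alpha and by -0.10 in Pdx1-deficient cells. The identity markers ran with the titles as lists: 5 of 9 measured beta markers fell in alpha arrays and 0 rose. Of 8 alpha markers, 5 rose and 0 fell (limma, adjusted p under 0.05 over all genes). But Gcg, the glucagon gene, averaged 12.35 in beta and 12.74 in alpha arrays. Ins2, an insulin gene, read 11.77 to 11.98 in beta, 11.86 to 12.09 in alpha and 11.90 to 12.12 in Pdx1-deficient arrays. Sst and Ppy, hormone genes of other islet cells, averaged 12.08 and 12.34 in beta and 12.13 and 12.43 in alpha arrays. In Pdx1-deficient arrays these averaged 11.61 and 12.46. Beta and alpha arrays overlapped for each of these hormone genes, and the purity of the groups was not tested. Pdx1 itself read 8.85 to 9.33 in beta arrays and 7.83, 7.68, 6.53 and 7.59 in the arrays labelled Pdx1-deficient replicates 2 to 5. Replicate 1 of that label read 9.12, which goes against the label because it is within the beta values. The mean of the 9 beta markers in this array, 10.54, was also within the beta range of 10.37 to 10.66. In the other arrays of that label it was 9.30 to 9.82. Alpha replicate 5 had a mean of 11.50 over 11 acinar markers where the other arrays had 5.73 to 7.15. Alpha replicate 2 had an alpha marker mean of 8.80, where the other alpha arrays had 9.84 or more. Counts of genes and members that passed, and the differences of some genes, are given with and without Pdx1-deficient replicate 1 and alpha replicate 2. Alpha replicate 5 was kept in that setting and was left out only on its own.

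Few members differed between groups. In alpha compared with beta cells, leaving Ndst4 aside, 1 of 39 measured members rose (Gpc6) and 3 fell (B3gat3, Hpse and Sdc3), 10.3% of them, where 4.04% of all genes passed (0.893% higher and 3.15% lower). At an unadjusted p under 0.05 there were 14 of 39, beside 20.7% of all genes. Because the set was proposed from this contrast, nothing is read from these shares. In Pdx1-deficient compared with beta cells 1 of 40 passed, higher, and 0 lower, 2.50% where 1.09% of all genes passed (0.16% higher and 0.928% lower); the 1 was Ndst4, from which nothing is read, and 0 of the other 39 passed (limma). In that comparison 11 of 40 had an unadjusted p under 0.05, beside 21.8% of all genes. Between Pdx1-deficient and alpha cells 0 of 39 members and 0% of all genes passed (limma); at an unadjusted p under 0.05 there was 1 member, Hpse, and 6% of genes. The arrays of these groups overlapped for all 39 members, and did not overlap for 0.637% of all genes. Median differences over the members were -0.03, -0.03 and 0.05 on the log2 scale, beside 0.04, 0.06 and 0.02 over all genes. Without Pdx1-deficient replicate 1 and alpha replicate 2 together, 1 member rose and 5 fell in alpha cells (7.15% of genes passed), 1 (Ndst4) was higher and 2 (Papss2 and Extl2) were lower in Pdx1-deficient compared with beta cells (3.14%), and 0 passed between Pdx1-deficient and alpha cells (0.888%). With array medians subtracted, 10.4% rather than 22.1% of the genes called between alpha and beta cells were higher, and 4.23% rather than 14.7% of those called between Pdx1-deficient and beta cells.

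Ndst4 encodes 1 of the 4 NDST enzymes, which set the pattern of N-sulfation. Its log2 signal in beta replicates 1 to 5 was 4.24, 4.44, 4.68, 4.84 and 4.37. Alpha replicates 1 to 5 read 8.27, 6.50, 8.49, 8.55 and 8.79. The arrays labelled Pdx1-deficient replicates 1 to 5 read 6.77, 5.73, 6.52, 7.23 and 6.56. Every alpha and every Pdx1-deficient array thus lay above every beta array, and only alpha replicate 2 fell among the Pdx1-deficient values. Group means were 4.51 ± 0.24 (SD, n = 5) in beta, 8.12 ± 0.92 in alpha and 6.56 ± 0.54 in Pdx1-deficient cells. All 5 beta values lay below the 25th percentile of genes on their own array (4.97 to 5.21 over the 15 arrays), so the beta signal may be background and folds against it are better read as lower bounds: 12.2-fold in alpha and 4.14-fold in Pdx1-deficient cells. RNA of sorted samples cannot tell more cells expressing a gene apart from more RNA per cell.

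In Pdx1-deficient cells Ndst4 was 2.05 above its beta level on the log2 scale (SE 0.36), a difference known from earlier results of these data and set against the beta arrays that took part in the gene's choice, so no p-value is given. The difference was 2.00 without the array labelled Pdx1-deficient replicate 1, whose own Ndst4 signal was above every beta array although its Pdx1 was at the beta level. Pdx1-deficient and alpha means differed by -1.56, and by -2.01 without Pdx1-deficient replicate 1 and alpha replicate 2. That difference is a description too.

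The other measured NDST genes stayed close to their beta values. Ndst2 had means of 6.32, 6.31 and 6.24 in beta, alpha and Pdx1-deficient cells, with a 95% interval of -0.28 to 0.27 for alpha minus beta and -0.35 to 0.20 for Pdx1-deficient minus beta. Ndst3 had means of 4.44, 4.57 and 4.46 and lay below the 25th percentile of genes on all 15 arrays, so its signal may be background. Its intervals were -0.02 to 0.28 and -0.14 to 0.17.

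**Figure D1:**
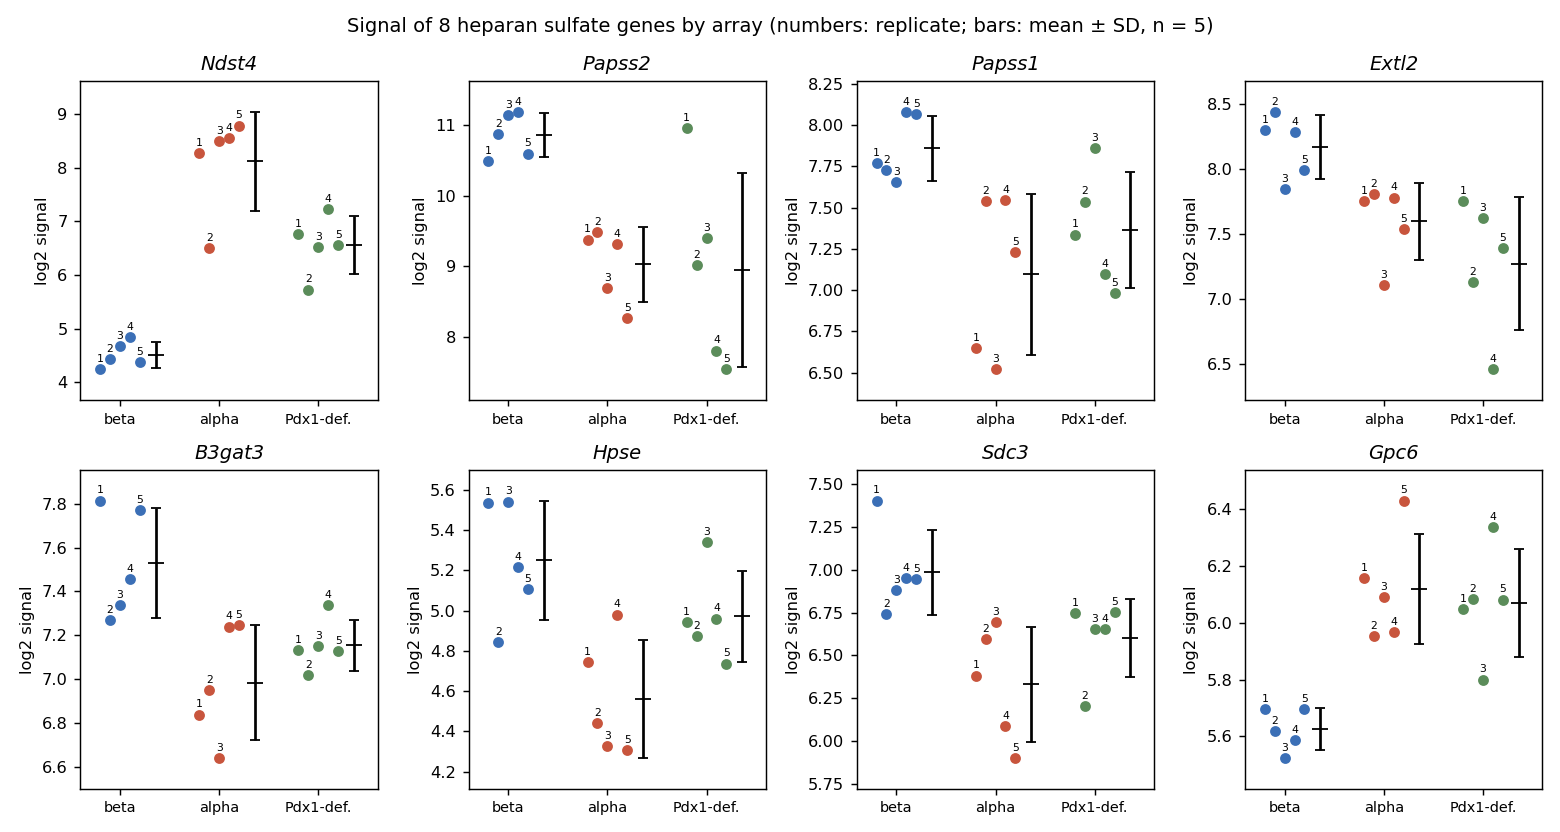
Log2 signal (vertical axis) of 8 heparan sulfate genes in the 15 arrays, by group (horizontal axis); numbers give the replicate, and bars the mean ± SD of 5 arrays. Ndst4 runs from 4.24 to 4.84 in beta arrays and from 5.73 upward in all others, and Papss2 is at the beta level in Pdx1-deficient replicate 1 alone of its group.

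The sulfate for every step comes from a single donor, made by the synthases of Papss1 and Papss2. Papss2 read 10.49, 10.87, 11.14, 11.19 and 10.59 in beta replicates 1 to 5. In alpha replicates 1 to 5 it read 9.38, 9.48, 8.68, 9.31 and 8.26, all below every beta array. The arrays labelled Pdx1-deficient read 10.96, 9.01, 9.39, 7.80 and 7.54, so replicate 1 sat inside the beta range and replicates 2 to 5 below it. Means were 10.85 ± 0.31 (SD, n = 5), 9.02 ± 0.53 and 8.94 ± 1.37.

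In alpha cells Papss2 differed from its beta level by -1.83 (SE 0.49, 95% interval -2.89 to -0.78, limma adjusted p = 0.0512) and in Pdx1-deficient cells by -1.91 (95% interval -2.97 to -0.86, limma adjusted p = 0.0692). Neither passed across all genes. Without Pdx1-deficient replicate 1 the second difference was -2.42, and it passed (limma adjusted p = 0.00633). The alpha difference then passed too (-1.83, limma adjusted p = 0.0108), since the fit shares 1 estimate of the spread. It also passed without alpha replicate 2 (-1.95, limma adjusted p = 0.0430) and without Pdx1-deficient replicate 4 or 5 (limma adjusted p = 0.0408 and 0.0340). With array medians subtracted or dim genes removed both Papss2 differences passed, and so did the alpha difference in a fit of only the beta and alpha arrays (limma adjusted p = 0.00666). Papss1 read 7.77, 7.73, 7.66, 8.08 and 8.06 in beta replicates 1 to 5, 6.65, 7.54, 6.52, 7.54 and 7.23 in alpha replicates and 7.34, 7.54, 7.86, 7.10 and 6.98 in Pdx1-deficient replicates. Its alpha arrays all lay below the beta arrays, by 0.76 on average (SE 0.21, limma adjusted p = 0.058; 0.0267 without alpha replicate 2, with a difference of -0.87, and below 0.05 also with medians subtracted or dim genes removed). In Pdx1-deficient cells it differed from beta by -0.50 (limma adjusted p = 0.197).

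The reference annotation gave upstream sequence for Papss2 at each of its transcript starts, shown here because this gene had the largest difference below beta among the members; bases within the annotated gene at the outer start were left out. The sequences are those of RefSeq, build GRCm38.p6, written 5′ to 3′, with capitals for GGGCGG or its complement CCGCCC, the letters of a GC box. The outer stretch, chr19:32595465-32595668 on the plus strand, is 65.2% G and C over 204 bases with 17 CpG pairs. The inner stretch, chr19:32619755-32620004 on the plus strand, lies inside the annotated gene, is 43.2% G and C over 250 bases and has 1 CpG pair.
Papss2 outer start: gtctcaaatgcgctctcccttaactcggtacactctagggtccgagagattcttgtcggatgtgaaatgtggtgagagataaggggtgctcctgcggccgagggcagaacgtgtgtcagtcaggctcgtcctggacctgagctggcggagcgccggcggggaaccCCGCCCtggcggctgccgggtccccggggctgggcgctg
Papss2 inner start: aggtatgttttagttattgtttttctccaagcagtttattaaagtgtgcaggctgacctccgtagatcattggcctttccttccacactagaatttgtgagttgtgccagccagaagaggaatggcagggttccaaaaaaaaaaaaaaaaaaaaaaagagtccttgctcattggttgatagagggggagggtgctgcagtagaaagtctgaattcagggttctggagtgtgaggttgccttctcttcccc

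Of the 5 enzymes of the linker between core protein and chain, 1 fell in alpha cells, beside 3.15% of all genes. B3gat3, the glucuronyltransferase that completes the linker, read 7.81, 7.27, 7.34, 7.46 and 7.77 in beta replicates 1 to 5, and 6.84, 6.95, 6.64, 7.24 and 7.25 in alpha replicates 1 to 5. The groups did not overlap, though the highest alpha and the lowest beta array were close. It fell by 0.55 on the log2 scale (SE 0.14, limma adjusted p = 0.0371), and the call was lost without beta replicate 1, 4 or 5 or alpha replicate 1 or 3 (differences of -0.57 to -0.46, limma adjusted p = 0.0653 to 0.0947) and without Pdx1-deficient replicate 1 and alpha replicate 2 together (-0.54, limma adjusted p = 0.052). It also failed after quantile normalization, with trended robust moderation and in a fit of only the 10 arrays compared (limma adjusted p = 0.0603, 0.0529 and 0.0727). The Pdx1-deficient replicates read 7.13, 7.02, 7.15, 7.34 and 7.13, a difference of -0.37 from beta cells (limma adjusted p = 0.146). Xylt1 and Xylt2, which attach the first xylose, and B4galt7 and B3galt6, which add the galactoses, differed from beta cells by -0.23 to 0.11 in alpha and by -0.17 to 0.05 in Pdx1-deficient cells, and none of these 4 passed.

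Chain initiation and extension had 0 of 5 members past the threshold in either comparison with beta cells. Of the 5 differences 4 were below 0 in each, as under both other scalings of the same arrays. Over all 19938 genes, 8326 differences were below 0 in alpha and 7815 in Pdx1-deficient cells. Both comparisons share the 5 beta arrays. Extl2, whose enzyme can cap a phosphorylated linker and so stop chain growth, read 8.30, 8.44, 7.85, 8.29 and 7.99 in beta replicates 1 to 5. Alpha replicates read 7.75, 7.81, 7.11, 7.78 and 7.54, and the arrays labelled Pdx1-deficient replicates 1 to 5 read 7.76, 7.13, 7.62, 6.46 and 7.39. All 10 lay below the lowest beta array. In Pdx1-deficient cells Extl2 differed from its beta level by -0.90 (SE 0.22, limma adjusted p = 0.0556) and by -0.57 in alpha cells (limma adjusted p = 0.149). The former passed without Pdx1-deficient replicate 1 (-1.02, limma adjusted p = 0.0267) or replicate 3 (-0.99, limma adjusted p = 0.0497), and with medians subtracted or dim genes removed (limma adjusted p = 0.033 and 0.0349).

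Extl3, which adds the first glucosamine unit of the chain, differed by -0.62 in alpha cells (limma adjusted p = 0.0783) and by -0.37 in Pdx1-deficient cells. Ext1 read 7.998, 8.20, 7.94, 8.89 and 7.85 in beta replicates 1 to 5, 7.501, 8.22, 7.62, 7.73 and 8.38 in alpha replicates and 7.82, 7.36, 8.02, 7.64 and 7.24 in Pdx1-deficient replicates, so the groups overlapped. Ext1 and Ext2, which form the polymerase, differed by -0.28 and -0.42 in alpha cells (limma adjusted p = 0.478 and 0.179) and by -0.56 and -0.33 in Pdx1-deficient cells (limma adjusted p = 0.17 and 0.269). Extl1, a related glycosyltransferase gene, was the exception in sign, at 0.25 in alpha and 0.43 in Pdx1-deficient cells (limma adjusted p = 0.236 and 0.077); its Pdx1-deficient arrays, 5.86 to 6.41, lay above the beta arrays, 5.38 to 5.80. In all, the arrays of Pdx1-deficient and beta cells did not overlap for 4 of 40 members, 10% against 5.96% of all genes: Ndst4, Extl1 and Gpc6 were higher (2.77% of all genes) and Extl2 lower (3.18%). In alpha and beta cells that held for 6 of 39 besides Ndst4, 15.4% against 6.34%: Gpc6 was higher (2.29% of all genes), and B3gat3, Papss1, Papss2, Extl2 and Sdc3 were lower (4.05%). The share of 10% includes Ndst4, which was chosen with the beta arrays, and the set was proposed from the alpha and beta arrays. Nothing is read from either share.

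None of the 12 genes that turn or sulfate the chain after N-sulfation passed in any comparison (limma). Glce, the epimerase that turns glucuronic into iduronic acid, read 6.95 to 7.49 in beta, 6.20 to 7.09 in alpha and 6.13 to 7.42 in Pdx1-deficient arrays, which overlap. It differed by -0.66 in alpha cells (limma adjusted p = 0.109). It passed when Pdx1-deficient replicate 1 and alpha replicate 2 were left out together. Hs2st1 encodes the heparan sulfate 2-O-sulfotransferase. Hs2st1 read 7.48, 7.14, 7.35, 7.39 and 7.05 in beta replicates 1 to 5, 6.66, 7.44, 6.88, 7.14 and 7.14 in alpha replicates and 7.21, 7.59, 7.27, 6.42 and 6.81 in Pdx1-deficient replicates. It had means of 7.28, 7.05 and 7.06 in beta, alpha and Pdx1-deficient cells, with 95% intervals of -0.64 to 0.18 and -0.64 to 0.19 against beta cells.

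Among the 6-O-sulfotransferases, Hs6st1 read 7.66, 6.88, 7.23, 7.29 and 7.63 in beta replicates 1 to 5, 6.76, 7.01, 7.29, 7.64 and 7.11 in alpha replicates and 7.18, 7.02, 6.87, 6.92 and 7.23 in Pdx1-deficient replicates, again with overlap (differences from beta of -0.18 and -0.29, limma adjusted p = 0.564 and 0.308). Its relative Hs6st3 had means of 6.78, 6.90 and 7.12 (Pdx1-deficient minus beta 0.35, limma adjusted p = 0.173). Hs6st2 lay below the 25th percentile of genes on all 15 arrays, at 3.83 to 4.16. The 7 genes of the 3-O-sulfotransferases, whose products finish rare motifs such as the antithrombin site, differed from beta cells by -0.30 to 0.18 in alpha and by -0.18 to 0.19 in Pdx1-deficient cells. Hs3st3b1 read 6.42, 6.54, 6.42, 6.45 and 6.58 in beta replicates 1 to 5, 6.82, 6.56, 6.61, 6.61 and 6.70 in alpha replicates and 6.62, 6.53, 6.62, 6.80 and 6.80 in Pdx1-deficient replicates (differences from beta of 0.18 and 0.19, limma adjusted p = 0.22 and 0.181). Hs3st3a1 and Hs3st5 were below the 25th percentile of genes on all 15 arrays.

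Of the 3 genes that edit or cut finished chains, 1 fell in alpha cells, beside 3.15% of all genes. Hpse encodes heparanase, the enzyme that cleaves heparan sulfate. It read 5.54, 4.84, 5.54, 5.21 and 5.11 in beta replicates 1 to 5 and 4.74, 4.44, 4.33, 4.98 and 4.31 in alpha replicates 1 to 5. Alpha replicate 4 lay above beta replicate 2, so the groups overlapped. Hpse fell by 0.69 on the log2 scale (SE 0.16, limma adjusted p = 0.0315). The call was lost without beta replicate 1, 3, 4 or 5 or alpha replicate 3 or 5 (differences of -0.72 to -0.62, limma adjusted p = 0.0520 to 0.0848), and in a fit of only the 10 arrays compared (limma adjusted p = 0.0539). Its signal was below the 25th percentile of genes on 10 of the 15 arrays, among them all 5 alpha arrays, so the alpha signal may be background and the true fall could be larger. The filter on dim genes removed Hpse. Pdx1-deficient replicates read 4.94, 4.87, 5.34, 4.96 and 4.74, a difference of -0.28 from beta cells (limma adjusted p = 0.315) and of 0.41 from alpha cells (95% interval 0.06 to 0.76, limma adjusted p = 0.752). Sulf1 and Sulf2, which remove 6-O-sulfate outside the cell, differed by 0.04 and -0.20 in alpha and by 0.13 and -0.11 in Pdx1-deficient cells. Sulf2 read 6.03, 5.60, 5.60, 5.69 and 5.70 in beta replicates 1 to 5, 5.56, 5.41, 5.55, 5.51 and 5.60 in alpha replicates and 5.40, 5.502, 5.86, 5.71 and 5.60 in Pdx1-deficient replicates (limma adjusted p = 0.278 and 0.507 against beta cells).

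Syndecans are core proteins that span the membrane. Sdc3 read 7.40, 6.74, 6.88, 6.95 and 6.95 in beta replicates 1 to 5 and 6.38, 6.59, 6.69, 6.09 and 5.901 in alpha replicates 1 to 5, without overlap. It fell by 0.65 in alpha cells (SE 0.16, limma adjusted p = 0.0393). It lost the call without beta replicate 1, 3, 4 or 5, alpha replicate 1, 4 or 5, or Pdx1-deficient replicate 3 (differences of -0.68 to -0.55, limma adjusted p = 0.0512 to 0.0947), and kept it without Pdx1-deficient replicate 1 and alpha replicate 2 together (-0.72, limma adjusted p = 0.0273). It also failed in a fit of only the 10 arrays compared (limma adjusted p = 0.0626). Pdx1-deficient replicates read 6.75, 6.20, 6.65, 6.65 and 6.75, a difference of -0.38 from beta cells (limma adjusted p = 0.197). Among the others, Sdc2 read 7.69, 7.85, 7.78, 7.59 and 7.79 in beta replicates 1 to 5, 8.06, 8.25, 7.52, 8.05 and 8.13 in alpha replicates and 7.58, 8.27, 8.11, 7.51 and 6.84 in Pdx1-deficient replicates, with its lowest value in Pdx1-deficient replicate 5. Sdc2 had means of 7.74, 8.003 and 7.66 in beta, alpha and Pdx1-deficient cells, Sdc4 of 7.25, 6.96 and 7.08, and Sdc1 of 5.26, 5.47 and 5.46. None of these 3 passed.

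Glypicans are core proteins held by a lipid anchor, and Gpc6 was the member that rose in alpha cells. It read 5.70, 5.62, 5.52, 5.59 and 5.70 in beta replicates 1 to 5 and 6.16, 5.95, 6.09, 5.97 and 6.43 in alpha replicates 1 to 5. The arrays labelled Pdx1-deficient replicates 1 to 5 read 6.05, 6.08, 5.80, 6.34 and 6.08. Every alpha and Pdx1-deficient array was above every beta array. Gpc6 rose by 0.50 in alpha cells (SE 0.11, 95% interval 0.27 to 0.72, limma adjusted p = 0.0202) and passed in all 15 leave-outs (limma adjusted p = 0.0107 to 0.0492), but not after renewed quantile normalization (0.40, limma adjusted p = 0.0506), and the filter on dim genes removed it. In Pdx1-deficient cells it differed from beta by 0.45 (95% interval 0.22 to 0.67, limma adjusted p = 0.0549), and passed without alpha replicate 5 or Pdx1-deficient replicate 3 (limma adjusted p = 0.0432 and 0.0378). Pdx1-deficient and alpha cells differed by -0.05 (95% interval -0.28 to 0.18).

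The mean of 9 stromal markers was 5.27 to 5.499 in beta, 5.36 to 6.07 in alpha and 5.53 to 5.75 in Pdx1-deficient arrays. It ran higher than in beta in every Pdx1-deficient array and in the alpha arrays other than replicate 2. In alpha replicate 2 it was 5.36, inside the beta range, where Gpc6 read 5.95. Of these 9, 1 (Rgs5) rose in alpha cells and 0 passed in Pdx1-deficient cells, and Lum lay below the 25th percentile of genes on all arrays. Means of 10 dissociation stress genes also ran higher, with 8.36 to 8.95 in beta, 8.68 to 9.81 in alpha and 8.92 to 9.43 in Pdx1-deficient arrays. Of these 10, 2 rose in alpha cells and 0 passed in Pdx1-deficient cells. Of all genes, 0.893% rose in alpha cells. The part of the stromal and stress genes in the differences of the members was not tested. Without alpha replicate 5, the array with acinar signal, Gpc6 still rose in alpha cells (0.42, limma adjusted p = 0.0466). Gpc5, the neighbour of Gpc6 on chromosome 14, lay below the 25th percentile of genes on all 15 arrays, at 4.23 to 4.69. The neighbours Gpc4 and Gpc3 on chromosome X had means of 9.05, 8.99 and 9.29 and of 5.14, 5.29 and 5.23 in beta, alpha and Pdx1-deficient cells. Gpc4 read 9.18, 8.67, 9.13, 9.10 and 9.16 in beta replicates 1 to 5, 8.78, 9.33, 9.21, 8.78 and 8.84 in alpha replicates and 8.92, 9.40, 9.57, 9.26 and 9.31 in Pdx1-deficient replicates. Its differences from beta were -0.06 in alpha (95% interval -0.37 to 0.25) and 0.24 in Pdx1-deficient cells (95% interval -0.07 to 0.55). Gpc1 and Gpc2 differed from beta cells by -0.12 to 0.18. None of the 5 other glypicans passed.

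**Figure D2:**
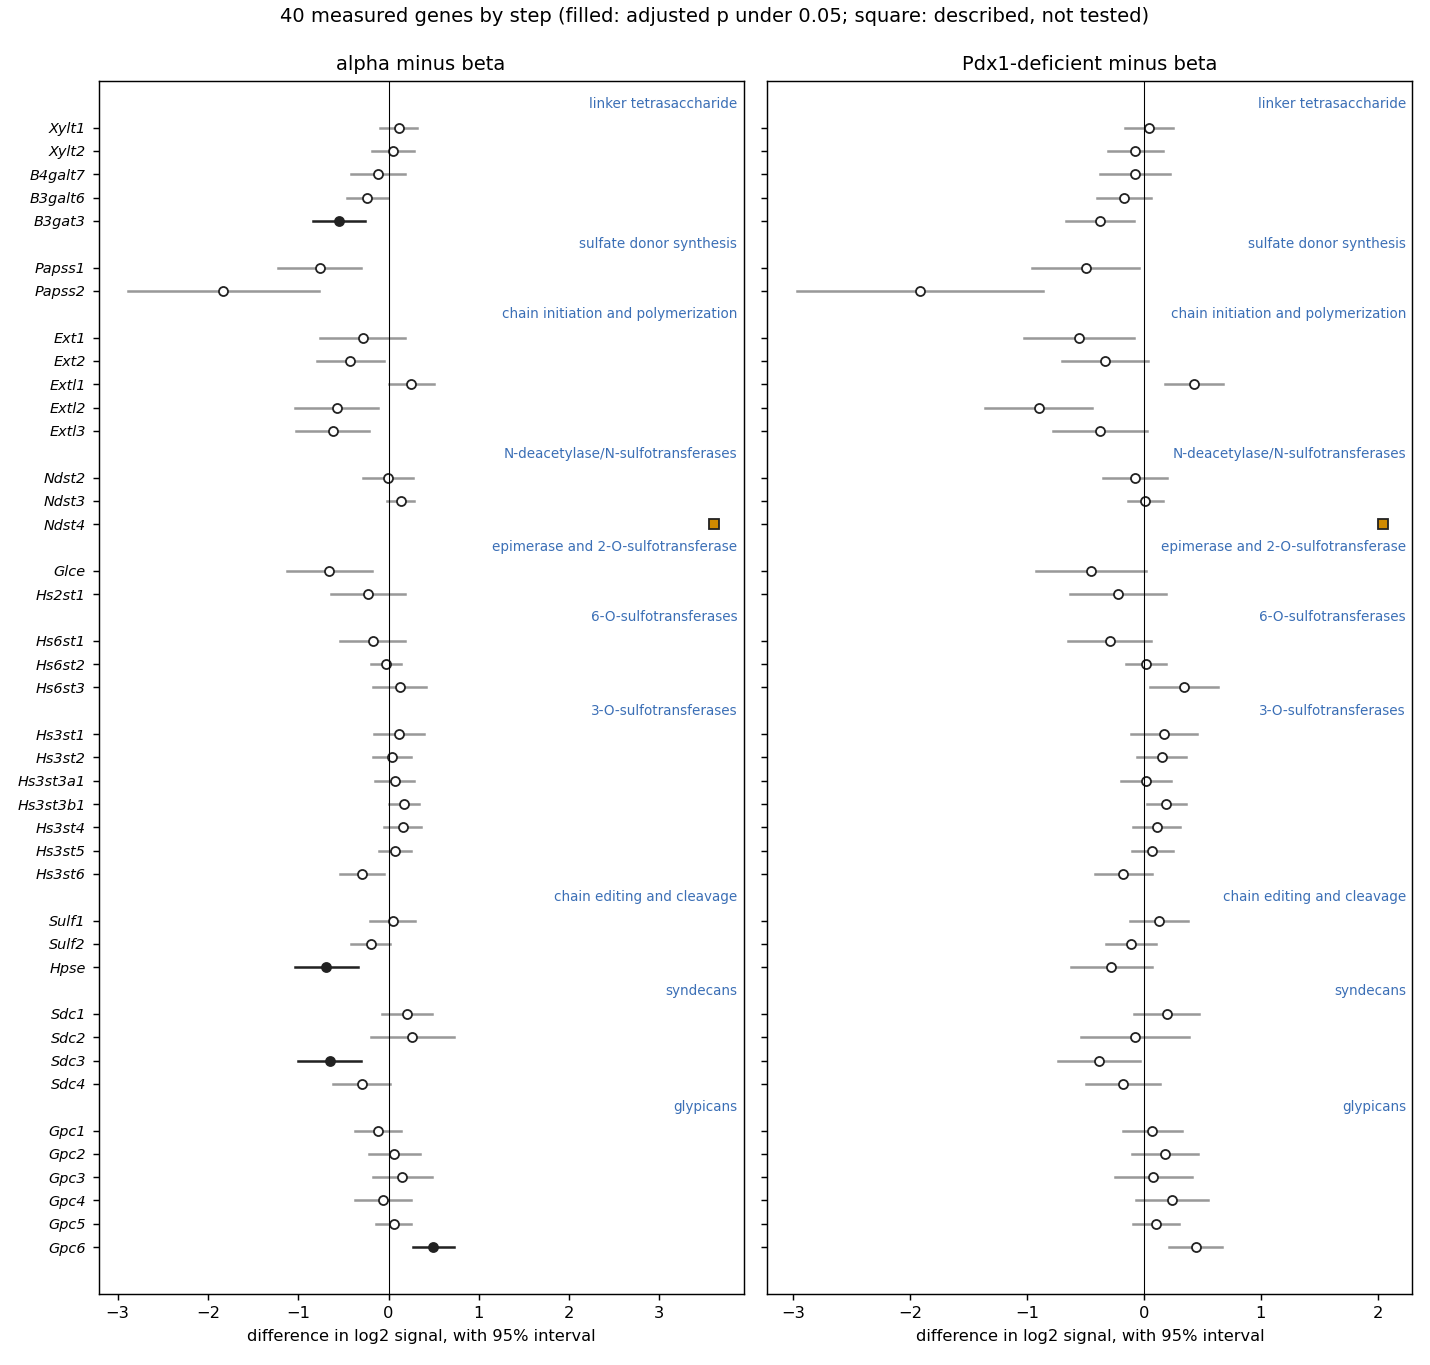
Difference in log2 signal from beta cells (horizontal axes, which differ in range) for the 40 measured genes, grouped by step, in alpha cells (left) and Pdx1-deficient cells (right); lines are 95% intervals from limma with 5 arrays a group. Filled circles passed an adjusted p of 0.05: B3gat3, Hpse, Sdc3 and Gpc6 on the left and none on the right; squares without lines mark Ndst4, 3.61 and 2.05, which is described and not tested.

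The arrays labelled Pdx1-deficient did not behave alike for these genes. In replicate 1, with Pdx1 at 9.12, Papss2 (10.96) was inside the beta range, Extl2 (7.76) just below it and Ndst4 (6.77) above it. Replicates 4 and 5 had the lowest Papss2 of all 15 arrays, 7.80 and 7.54, below the alpha range of 8.26 to 9.48. Their Pdx1 was 6.53 and 7.59. Over all clusters, replicates 4 and 5 had 25th percentiles of 4.80 and 4.80 and 75th percentiles of 7.24 and 7.25. The beta arrays had 4.55 to 4.66 and 7.34 to 7.40. Mean correlation with the own group was 0.937 and 0.940 in replicates 4 and 5, the lowest of the 15 arrays. Whether this had a part in their values was not tested. Replicates 2 and 3 read 9.01 and 9.39 for Papss2, inside the alpha range, with Pdx1 at 7.83 and 7.68. For Ndst4, replicates 2 and 3 read 5.73 and 6.52 and replicates 4 and 5 read 7.23 and 6.56, so the closest values of these pairs were nearly equal, and all 4 lay above the beta range. With 5 arrays, no correlation is given.

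**Figure D3:**
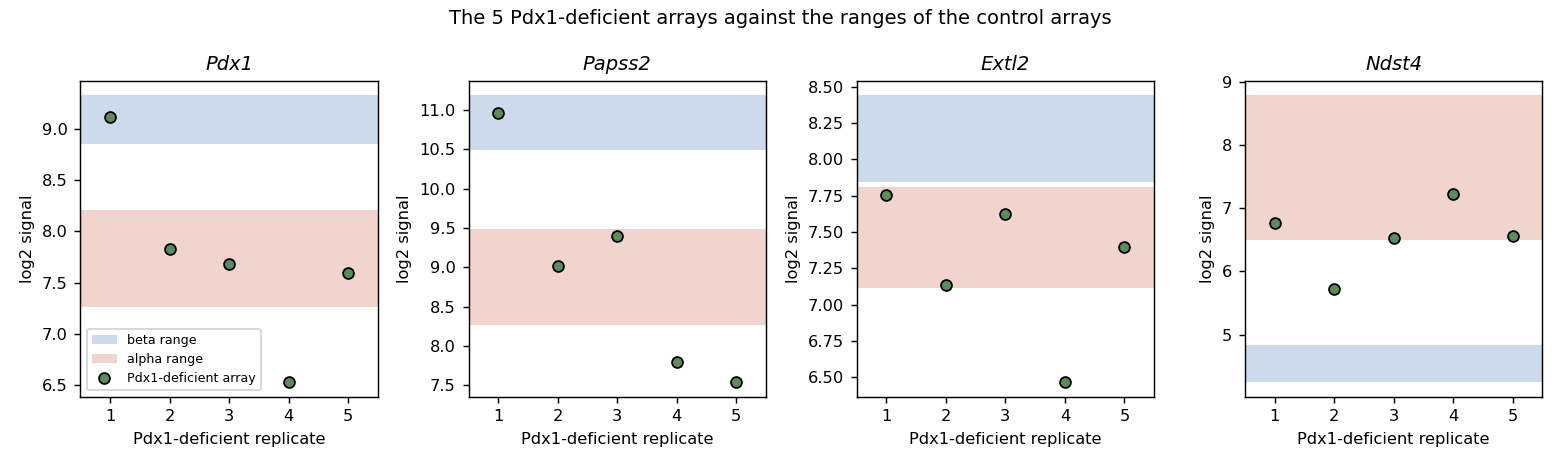
Log2 signal (vertical axis) of Pdx1, Papss2, Extl2 and Ndst4 in the arrays labelled Pdx1-deficient replicates 1 to 5 (horizontal axis), with shaded bands for the range of the 5 beta and the 5 alpha arrays. Replicate 1 lies in the beta band for Pdx1 and Papss2 and outside it for Extl2 and Ndst4.

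Both comparisons with beta cells share the same 5 beta arrays, so their values are set side by side without reading a likeness from them. Differences in alpha and in Pdx1-deficient cells were 0.50 and 0.45 for Gpc6, -1.83 and -1.91 for Papss2, -0.57 and -0.90 for Extl2, -0.55 and -0.37 for B3gat3, -0.65 and -0.38 for Sdc3, and -0.69 and -0.28 for Hpse. Between Pdx1-deficient and alpha cells, the 39 tested members differed by -0.34 (Sdc2) to 0.41 (Hpse).

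Genes that surround this pathway were read from lists of the same kind. Of all genes, 3.15% fell and 0.893% rose in alpha compared with beta cells. In Pdx1-deficient compared with beta cells 0.928% fell and 0.16% rose. Of 10 other core proteins, 1 fell in alpha cells: Spock2, encoding the matrix proteoglycan testican-2, went from a mean of 8.31 in beta to 6.86 in alpha cells (difference -1.45, SE 0.26, limma adjusted p = 0.00857) and passed in all 15 leave-outs. In Pdx1-deficient cells 0 of the 10 passed; Spock2 was at 7.73 (-0.58, limma adjusted p = 0.206), and the largest difference was -0.67 in its relative Spock1. Against alpha cells the largest was 0.90 in Cd44, which encodes a hyaluronan receptor (limma adjusted p = 0.825; 1.57 and limma adjusted p = 0.0109 without Pdx1-deficient replicate 1 and alpha replicate 2). Without alpha replicate 2, Spock2 was higher in Pdx1-deficient than in alpha cells (1.07, limma adjusted p = 0.0486), but not without Pdx1-deficient replicate 1 as well (1.06, limma adjusted p = 0.0766). Cd44 was lower in alpha than in beta cells when alpha replicate 2 was left out (-1.59, limma adjusted p = 0.00792; -1.17 and 0.13 with all arrays).

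Chondroitin and dermatan sulfate chains grow on the same linker. Of their 16 synthesis genes 2 fell in alpha cells, beside 3.15% of all genes. These were the chondroitin 4-O-sulfotransferase genes Chst11 (-1.20, limma adjusted p = 0.016) and Chst12 (-0.57, limma adjusted p = 0.0301). Chst11 also fell in Pdx1-deficient cells, where 0.928% of all genes did, from 7.28 to 6.21 (-1.07, SE 0.24, limma adjusted p = 0.0495). That last call held in 2 of 15 leave-outs, those without Pdx1-deficient replicate 1 or 3, with limma adjusted p up to 0.120 in the others, and it failed after quantile normalization, with trended robust moderation and in a fit of only the 10 arrays compared. Chst12 lost its call without beta replicate 1, 4 or 5 or alpha replicate 3, 4 or 5 (limma adjusted p = 0.0547 to 0.0751), after quantile normalization and in a fit of only the 10 arrays. Pdx1-deficient and alpha cells differed most in the dermatan sulfate epimerase gene Dse (0.60, limma adjusted p = 0.765).

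Of 7 measured genes for lysosomal breakdown of heparan sulfate, 2 fell in alpha cells, beside 3.15% of all genes. They were Hgsnat, an acetyltransferase (-0.65, limma adjusted p = 0.021), and Gusb, the beta-glucuronidase (-0.83, limma adjusted p = 0.0387). Hgsnat lost its call without beta replicate 1 or alpha replicate 3 or 4 (limma adjusted p = 0.0530 to 0.0607) and after quantile normalization. Over the leave-outs, Gusb kept its call only without alpha replicate 2 or any 1 of the 5 Pdx1-deficient arrays, and it lost it after quantile normalization (limma adjusted p = 0.0633) and in a fit of only the 10 arrays compared (limma adjusted p = 0.0512). In Pdx1-deficient compared with beta cells 0 of the 7 passed, with Gusb at -0.91 (limma adjusted p = 0.0504) and passing without alpha replicate 1 or 2 or Pdx1-deficient replicate 1 or 3 (limma adjusted p = 0.0313 to 0.0497), with medians subtracted, dim genes removed or clusters averaged (limma adjusted p = 0.033, 0.0318 and 0.0496) and without both doubted arrays (0.0249); against alpha cells the largest was 0.52 in Hgsnat. Of 11 measured genes for the linker kinase and the supply of sulfate and sugar nucleotides, 0 passed in any comparison. Largest were -0.57 in alpha cells in Fam20b, the linker xylose kinase (limma adjusted p = 0.129), and -1.01 in Pdx1-deficient cells in Bpnt1, which clears the by-product of sulfotransferases (limma adjusted p = 0.102; -1.36 and 0.00561 without Pdx1-deficient replicate 1). Bpnt1 was at -0.73 in Pdx1-deficient compared with alpha cells (limma adjusted p = 0.778; -1.13 and 0.0185 without Pdx1-deficient replicate 1 and alpha replicate 2).

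The stretches upstream of the members' starts were set beside those of all genes with such a stretch, the members included. RefSeq's table held 37 windows for 31 of the 41 genes, taken as the 250 bases before each start; none was found for Ndst4 or Gpc6. Their median G and C content was 64.8% with 17 CpG pairs, where all 32851 windows had 52.4% and 6. The full set covers 27025 genes, more than the 19938 measured, and was not matched to the members. GGGCGG, read on both strands, was in 59.5% of the members' windows and 32.7% of all. TAATTA, a core that many homeodomain proteins including Pdx1 can bind and which reads the same on both strands, was in 0 of the 37 windows and in 4.84% of all. A match or its absence describes these letters only. The stretches before the starts of the 3 genes that fell in alpha cells are given for comparison, capitals as above, though B3gat3 has no match to them: B3gat3 at chr19:8920143-8920373 (plus strand, 231 bases after leaving out those within the annotated gene, 52.8% G and C), Sdc3 at chr4:130792287-130792536 (plus strand, 76.4%) and Hpse at chr5:100719717-100719966 (minus strand, 66.8%).
B3gat3: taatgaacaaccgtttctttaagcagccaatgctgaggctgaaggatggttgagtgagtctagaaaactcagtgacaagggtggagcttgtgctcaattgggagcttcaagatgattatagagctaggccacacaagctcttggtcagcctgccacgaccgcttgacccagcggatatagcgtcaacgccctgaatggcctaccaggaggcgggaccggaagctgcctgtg
Sdc3: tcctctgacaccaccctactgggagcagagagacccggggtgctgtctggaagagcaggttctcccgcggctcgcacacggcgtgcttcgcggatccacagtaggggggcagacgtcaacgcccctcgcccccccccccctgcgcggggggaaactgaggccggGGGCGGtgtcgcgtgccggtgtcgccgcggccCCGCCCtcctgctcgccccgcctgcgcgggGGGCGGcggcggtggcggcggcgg
Hpse: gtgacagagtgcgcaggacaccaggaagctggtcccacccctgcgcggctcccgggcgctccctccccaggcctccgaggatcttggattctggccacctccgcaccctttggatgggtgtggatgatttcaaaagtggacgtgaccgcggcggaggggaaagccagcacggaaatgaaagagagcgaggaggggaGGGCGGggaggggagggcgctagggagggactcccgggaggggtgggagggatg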

How the data were processed

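Each array's deposited column holds log2 signals, 1 for every transcript cluster; base 2 was taken from their range, 2.11 to 13.45. The software was Affymetrix Expression Console, per the submitters' processing notes; its version, the summarization, the background correction and the build were not stated. Clusters were named from the platform annotation (21789 of 35556 with 1 gene symbol), and where a gene had several clusters, that of highest mean signal in all 15 arrays stood for it. Groups came from sample titles.

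Group means over all 15 arrays were fitted with limma 3.58.1 (lmFit, eBayes) in R 4.3.3, without a block; p-values were adjusted by Benjamini and Hochberg over 19938 genes, threshold 0.05. The fit was run on simulated data, with independent normal values for each gene and array and differences planted in alpha arrays. Those data held no deviating arrays and no group shift in medians. The run therefore checks the code and not the calls made here. Levels of different genes are not compared as results, since probes differ. They do enter the 25th percentile used as a mark of low signal, the filter on dim genes and the choice of the highest member of each step. That percentile is not a detection threshold, because 25% of genes lie below it on each array by construction. Full values are given for members past the threshold in any comparison, members whose groups did not overlap with a difference of at least 0.5, the member with the highest mean in each step, and Ndst4. From each surrounding list the rule names up to 3 genes past the threshold, or that with the largest difference. Extl1 and Extl3 and Glce, and genes outside the rule given in a clause, were chosen after their values were seen. Ndst4 against beta cells, planned as a test, is given as a description. Members and lists were chosen with earlier results of these data known.

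Replicate numbers, shared between groups, were not used as pairs in the main fit. The correlation of deviations between arrays of the same number exceeded 0.1 in 3, 1 and 1 of 5 pairs. Between alpha and beta arrays it ran from 0.005 to 0.224. These values do not settle whether the numbers pair samples. Alternatives were 2 scalings, a filter on dim genes (mean below the median gene; it removes Gpc6, Hpse, Sulf2 and Dse among the named genes), all clusters of a gene averaged, trended robust moderation, only the groups compared, a replicate block, 15 leave-outs, and Pdx1-deficient replicate 1 and alpha replicate 2 left out together. Array number limits the precision.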

Additional observations from a re-analysis of the deposited data

Results flagged for a closer look

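In 12 of 120 combinations of member and group, 1 array stood apart from the other 4 of its group by more than 0.71 of the group's range; chance flags about 1 in 20. Alpha replicate 2 read 6.50 for Ndst4, where the next alpha array read 8.27. Alpha replicate 3 read 7.52 for Sdc2 (next 8.05), alpha replicate 4 read 6.30 for Hs3st2 (next 6.55), and alpha replicate 5 read 6.59 for Sdc4 (next 6.97). In the group labelled Pdx1-deficient, replicate 2 was low for Sdc3 at 6.20 (next 6.65), replicate 4 was low for Hs3st6 at 6.30 (next 6.54), and replicate 5 was high for Hs3st1 at 5.63 (next 5.25). Beta replicate 1 was high for Ndst2 at 6.84 (next 6.26) and for Sulf2 at 6.03 (next 5.70). Beta replicate 2 was low for Gpc4 at 8.67 (next 9.10), beta replicate 3 low for Gpc3 at 5.01 (next 5.16), and beta replicate 5 high for Gpc1 at 6.44 (next 6.25).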

How the results depend on the processing

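Counts of genes and members that passed moved with the settings; none of the named differences that passed changed sign in any alternative. Of 1713 alternative values of named differences, 1598 were counted as unchanged, 73 lost a call and 42 gained 1. Unchanged meant the same side of the threshold. For the Ndst4 differences that involve alpha cells, it meant a shift below the larger SD of the groups compared. The lost calls include those of Ndst4 in Pdx1-deficient compared with beta cells, which is a description. The sign was opposite in 27 values, all of differences that had not passed. Of 806 genes that passed between alpha and beta cells, the count became 1425 without Pdx1-deficient replicate 1 and alpha replicate 2, and 328 to 1430 over the leave-outs. The members' count there, 4, was 7 with array medians subtracted, 2 after renewed quantile normalization, 2 with only the 10 arrays compared, and 1 to 7 over the leave-outs. For Pdx1-deficient against beta cells, 217 genes became 615 with medians subtracted, 29 after quantile normalization, 389 without dim genes, 121 with trended robust moderation, 89 with only the 10 arrays compared, 626 without both doubted arrays, and 0 (without Pdx1-deficient replicate 5) to 548 over the leave-outs. Of the members, 1 (Ndst4, a description) passed there; 3 did with medians subtracted, without dim genes and without both doubted arrays, 0 after quantile normalization, and 0 to 3 over the leave-outs. Between Pdx1-deficient and alpha cells, 0 genes became 1 without dim genes, 1 with trended robust moderation, 177 without both doubted arrays and 0 to 145 over the leave-outs; members stayed at 0. With a replicate block, 633 genes passed between alpha and beta cells and 8 between Pdx1-deficient and beta cells; Sdc3 in alpha cells (limma adjusted p = 0.058) and Chst11 in Pdx1-deficient cells (0.0751) lost their calls, and the other named calls held. In these comparisons 1, 1 and 1 of 5 arrays correlated best with their own number. The cause of these moves was not tested. Low signals, which may be background, limit Ndst3, Hs6st2, Hs3st3a1, Hs3st5, Gpc5, the beta level of Ndst4 and the alpha level of Hpse.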
